A study of Arabidopsis thaliana with 8 samples.

Results

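The genes described here are 9 heat shock transcription factor (HSF) genes of Arabidopsis thaliana and MBF1C, which encodes a transcriptional coactivator of the heat response. They were taken by locus from a table of mRNA counts: HSFA1A (AT4G17750), HSFA1B (AT5G16820), HSFA1D (AT1G32330), HSFA1E (AT3G02990), HSFA2 (AT2G26150), HSFA3 (AT5G03720), HSFA7A (AT3G51910), HSFB1 (AT4G36990), HSFB2A (AT5G62020) and MBF1C (AT3G24500). All 10 were among the 20701 loci of the table, and all 10 passed the filter on low counts that left 20298 loci for testing. The mRNA came from whole seedlings of the cultivar Columbia, 10 days after germination, kept at 22 °C with 18 h of light and 6 h of dark, and the labels name no heat treatment. There were 2 wild-type libraries and 2 libraries from transgenic seedlings that carried 35S:CAHB12, each made from a pool of 50 seedlings. CAHB12 is a coffee homeodomain-leucine zipper gene, and the 35S promoter is active in nearly all plant tissues. The design text speaks of a pair of transgenic lines, but the labels do not say which line a pool came from.

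HSF proteins bind as trimers to heat shock elements, short inverted repeats in the promoters of chaperone genes. In Arabidopsis the HSFA1 proteins are present before a heat stress, are held back by chaperones of the HSP70 and HSP90 families, and start the response when those chaperones are drawn to unfolded proteins. HSFA2, HSFA3 and HSFA7A are then made and prolong it, while the class B factors HSFB1 and HSFB2A mostly repress.

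The libraries held 15682546 and 19436632 counts for wild-type replicates 1 and 2 and 15424261 and 16615556 counts for transgenic replicates 1 and 2. Values are CPM, the counts of a gene relative to the library total, scaled by TMM, a correction for library composition. A count of 0 would allow up to 0.155 to 0.192 CPM, the value of 3 counts per library, and this floor covers counting error only. Wild-type replicate 1 lay farthest out on the first principal component of all loci tested, at -32.5 against -3.67 for the other wild-type replicate and 9.37 and 26.8 for the transgenic replicates. The leaf markers RBCS1A and LHCB1.1 and the root marker PYK10 were abundant, with 1143 CPM as their lowest value in any library, and the root marker NRT2.1 had 2.76 to 5.17 CPM. For all but RBCS1A the wild-type and transgenic values lay apart: LHCB1.1 was 0.739-fold, NRT2.1 0.637-fold and PYK10 1.23-fold of wild type in transgenic seedlings, and none passed (edgeR adjusted p = 0.515, 0.551 and 0.574). The summed level of the seed markers CRC and OLEO1 was 3.77 and 15.2 CPM in wild type and 0.632 and 60.6 CPM in transgenic seedlings, so the transgenic pools differed in it more than the wild-type pools. The part of wild-type replicate 1, of the leaf and root markers or of the seed transcripts in the results below was not tested, beyond the fits that leave out 1 library. In seedling pools, fewer cells of a type and less RNA per cell cannot be told apart.

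The comparison asked which of these genes differed between transgenic and wild-type seedlings. None of the 10 passed edgeR's quasi-likelihood test at a Benjamini-Hochberg adjusted p under 0.05 over all loci, where 0.0838% of the loci tested passed (0.0345% as higher and 0.0493% as lower in transgenic seedlings). DESeq2 and limma also called 0 of the 10. An unadjusted p under 0.05 was reached by 3 of the 10, HSFA2 and MBF1C with higher means and HSFB2A with a lower mean in transgenic seedlings, against 7.92% of all loci tested. Both transgenic libraries lay above both wild-type libraries for HSFA1A, HSFA2 and MBF1C, and below them for 0 of the 10. That is 3 of 10 genes without overlap, beside 39.4% of all loci tested. The median log2 fold change (transgenic over wild type) was 0.07 over the 10 genes and 0.01 over all loci tested, with higher means for 7 genes and lower means for 3.

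**Figure D1:**
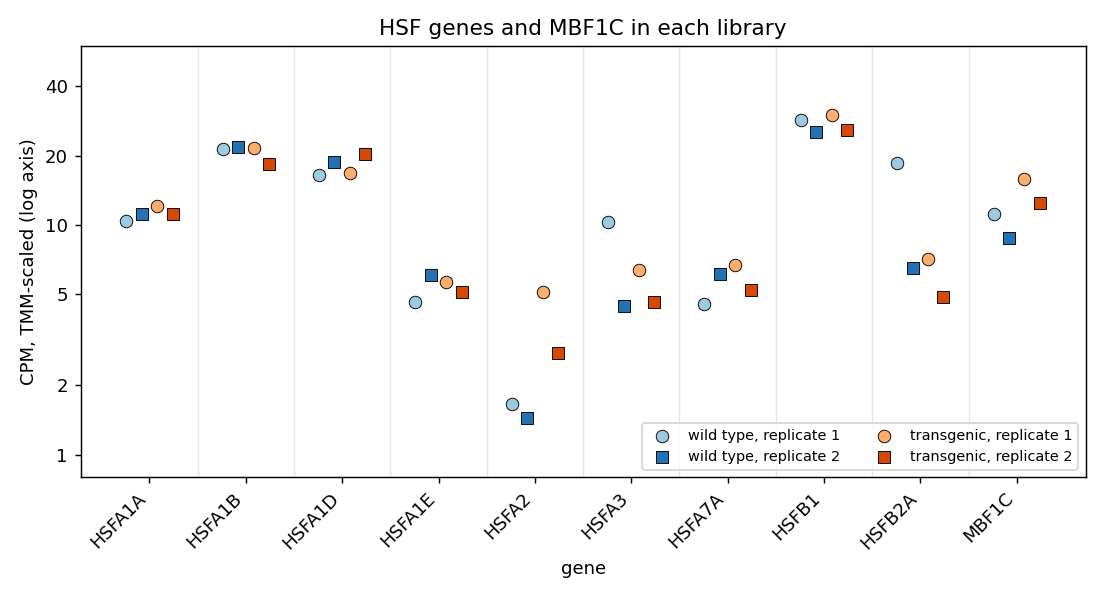
Level of each gene in each library, in TMM-scaled CPM on a log axis, with circles for replicate 1 and squares for replicate 2, wild type in blue and transgenic in orange. HSFA2 and MBF1C lie higher in both transgenic libraries, and the wild-type replicate 1 points of HSFA3 (10.3 CPM) and HSFB2A (18.5 CPM) stand above the other 3 libraries.

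The HSFA1 genes, which encode the master activators of the heat response, varied little, with the highest library 1.16-fold (HSFA1A) to 1.32-fold (HSFA1E) above the lowest. HSFA1A had 10.4 and 11.1 CPM in wild type and 12.1 and 11.2 CPM in transgenic seedlings. HSFA1B had 21.3 and 21.8 CPM in wild type and 21.5 and 18.4 CPM in transgenic seedlings. HSFA1D had 16.4 and 18.8 CPM in wild type and 16.7 and 20.4 CPM in transgenic seedlings. The groups of HSFA1B and HSFA1D overlapped, and those of HSFA1A were apart by less than the distance between its replicates. HSFA1E, the rarest of the 4 in counts, had 4.597 and 6.05 CPM in wild type and 5.63 and 5.09 CPM in transgenic seedlings, so both transgenic values lay between the wild-type ones.

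The log2 fold changes of the HSFA1 genes were 0.11 (SE 0.13, HSFA1A), -0.11 (SE 0.12, HSFA1B), 0.08 (SE 0.14, HSFA1D) and 0.0007 (SE 0.20, HSFA1E), with edgeR adjusted p of 0.855, 0.832, 0.914 and 0.999. Their 95% intervals hold for each gene alone, from 2 libraries per group, and are not adjusted for the number of loci tested. For HSFA1B the interval ran from 0.759-fold to 1.13-fold of wild type, and for HSFA1A from 0.871-fold to 1.33-fold. The HSFA1D interval ran from 0.84-fold to 1.32-fold and that of HSFA1E from 0.722-fold to 1.39-fold. A 2-fold change in either direction lay outside all 4 intervals.

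Per length, HSFA1B held the largest share of the summed HSFA1 level in each library, from 33.4% to 39.98% of the summed RPKM, the CPM per kilobase of the deposited length. HSFA1A held 28.1% to 30.97%, HSFA1D 22.6% to 28.6% and HSFA1E 7.69% to 9.31%. The sum itself was 20.4 and 22.2 RPKM in wild type and 21.8 and 21.0 RPKM in transgenic seedlings, with both transgenic values between the wild-type ones. The order of the 4 genes per length was the same in every library. In CPM, HSFA1D (16.4 to 20.4) lay above HSFA1A (10.4 to 12.1) in each library. The deposited lengths, which follow the genomic span, were 3390 bases for HSFA1D and 1785 for HSFA1A. The order of HSFA1A and HSFA1D thus rests on those lengths. The gene model of HSFA1B overlaps that of the syntaxin gene SYP21 (AT5G16830), with which reads can be shared. SYP21 had a log2 fold change of 0.29 (SE 0.13, edgeR adjusted p = 0.634).

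HSFA2, which is induced strongly by heat and sustains acquired thermotolerance, had the largest fold difference of the 10. It had 26 and 28 counts in the wild-type libraries against 81 and 45 counts in the transgenic libraries, or 1.66 and 1.45 CPM against 5.12 and 2.76 CPM. The wild-type replicates were within 1.15-fold of each other, while the transgenic replicates stood 1.85-fold apart, a replicate difference that 2.49% of the loci tested equalled or exceeded. The groups did not overlap, and the mean in transgenic seedlings was 2.54-fold higher (log2 fold change 1.34, SE 0.34, 95% interval 0.55 to 2.13). This did not pass over all loci (edgeR adjusted p = 0.373), and 1.18% of the loci tested had a p as small or smaller. The log2 fold change was 0.82 when transgenic replicate 1 was left out and was 1.72 when transgenic replicate 2 was. The table counts each gene as a whole, so the 4 RefSeq transcripts of HSFA2, a gene whose splicing is known to change with heat, are not told apart.

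HSFA3, which acts downstream of the DREB2 factors in drought and heat, had 10.3 and 4.45 CPM in wild type and 6.38 and 4.603 CPM in transgenic seedlings. The wild-type values enclosed the transgenic ones, with a 2.31-fold distance between the wild-type replicates that 1.11% of the loci tested equalled or exceeded. The log2 fold change of -0.40 (SE 0.36, edgeR adjusted p = 0.80) turned to 0.30 without wild-type replicate 1 and was -0.91 without wild-type replicate 2. HSFA3 thus had no stable direction in these libraries. Its gene model overlaps that of AT5G03710, not analysed here.

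HSFA7A, another heat-induced activator, had 4.53 and 6.10 CPM in wild type and 6.70 and 5.22 CPM in transgenic seedlings. The groups overlapped, and the log2 fold change was 0.15 (SE 0.22, edgeR adjusted p = 0.879). Leaving out wild-type replicate 1 gave -0.036 and leaving out transgenic replicate 1 gave -0.046. HSFA7A and HSFA2 are both known to be induced by heat, and the difference between their fold changes was not tested.

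**Figure D2:**
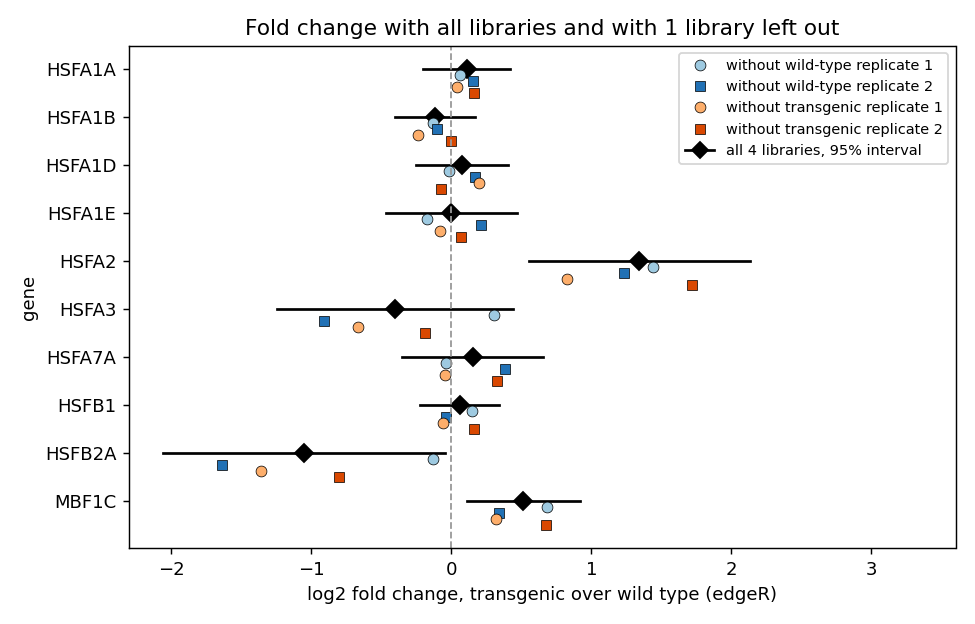
Log2 fold change of each gene, transgenic over wild type, from edgeR. Black diamonds with bars are the estimate and 95% interval from all 4 libraries, and coloured points are fits without 1 library. HSFA1A, HSFA2 and MBF1C keep positive values in each fit, and HSFA1B and HSFB2A negative ones, with HSFB2A between -1.64 and -0.13. HSFA3, HSFA7A, HSFA1D, HSFB1 and HSFA1E cross 0.

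Of the class B factors, HSFB1, also named TBF1 for its part in the switch from growth to defence, was the most abundant HSF gene of the group, with 28.5 and 25.2 CPM in wild type and 30.0 and 25.96 CPM in transgenic seedlings. Its groups overlapped and its log2 fold change was 0.06 (SE 0.12, 95% interval -0.22 to 0.34, edgeR adjusted p = 0.925). HSFB2A, a repressor, had 18.5 and 6.52 CPM in wild type and 7.08 and 4.85 CPM in transgenic seedlings. Wild-type replicate 1 stood 2.84-fold above wild-type replicate 2, a distance that 0.483% of the loci tested equalled or exceeded, and wild-type replicate 2 lay between the transgenic replicates.

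The log2 fold change of HSFB2A was -1.05 (SE 0.44, 95% interval -2.06 to -0.04) and did not pass (edgeR adjusted p = 0.612). A fit without 1 library takes its spread from the group that still has both, and assumes that the lone library varies alike. Without wild-type replicate 2, a fit that called 411 loci in place of 17, HSFB2A had -1.64 and passed (edgeR adjusted p = 0.000553), and without wild-type replicate 1 it had -0.13 (edgeR adjusted p = 0.999). The lower mean of HSFB2A in transgenic seedlings thus rested on wild-type replicate 1. Its closest paralog HSFB2B (AT4G11660), which also represses, had 14.05 and 9.88 CPM in wild type and 9.29 and 9.51 CPM in transgenic seedlings. HSFB2B had no overlap between groups, and 19.3% of all loci tested lay below in this way. Its log2 fold change was -0.34 (SE 0.18, edgeR adjusted p = 0.689), with a range of -0.59 to -0.07 over the fits without 1 library. HSFB2B too was highest in wild-type replicate 1. The value of -0.07 came without that library, and the value of -0.59 without wild-type replicate 2.

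MBF1C bridges transcription factors to the basal transcription machinery and is required for thermotolerance in Arabidopsis. It had 174 and 170 counts in wild type and 251 and 203 counts in transgenic seedlings, or 11.1 and 8.79 CPM against 15.9 and 12.5 CPM. Both transgenic libraries lay above both wild-type libraries. The mean was 1.43-fold higher in transgenic seedlings (log2 fold change 0.51, SE 0.17, 95% interval 0.11 to 0.92) and did not pass over all loci (edgeR adjusted p = 0.557). A p as small or smaller was found for 3.34% of the loci tested. The lowest value with a library left out was 0.32, when that was transgenic replicate 1, and the highest was 0.69, when it was wild-type replicate 1.

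The gene model of MBF1C overlaps MSH7 (AT3G24495), ALDH2C4 (AT3G24503) and the antisense locus AT3G04685 in the later annotation, and the sources used here do not say whether counting used strand. MSH7 and ALDH2C4 had lower means in transgenic seedlings, with log2 fold changes of -0.24 (SE 0.15) and -0.13 (SE 0.09), and neither passed (edgeR adjusted p = 0.724 and 0.755). AT3G04685 was not analysed here. The other MBF1 genes are not known for a heat response. MBF1A (AT2G42680) and MBF1B (AT3G58680) had 55.9 to 59.6 CPM and 134.9 to 154 CPM over the 4 libraries. Their log2 fold changes were -0.02 (SE 0.09, MBF1A) and 0.08 (SE 0.10, MBF1B), with edgeR adjusted p of 0.9751 and 0.863.

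Ordered by level per length, MBF1C stood first with 19.2 ± 4.70 RPKM (SD over the 4 libraries) and HSFA2 last with 1.60 ± 0.982 RPKM, an 11.96-fold span. Between them came HSFB1 (13.9 ± 1.13 RPKM), HSFA1B (7.94 ± 0.604), HSFA1A (6.27 ± 0.382), HSFB2A (5.95 ± 4.03), HSFA1D (5.33 ± 0.547), HSFA7A (4.26 ± 0.721), HSFA3 (3.39 ± 1.43) and HSFA1E (1.82 ± 0.216). The levels of the 4 libraries did not overlap between HSFB1 and HSFA1B, between HSFA1B and HSFA1A, or between HSFA3 and HSFA1E. The other 6 pairs of neighbours overlapped. Of these, only MBF1C and HSFB1 kept their order within every library, with MBF1C higher. The order of the remaining pairs changed between libraries, so it is not separated from the spread between them. In CPM, HSFA3 (4.45 to 10.3) and HSFA1E (4.597 to 6.05) overlapped as well. HSFA3 was counted over 1897 bases of a 3185-base span and HSFA1E over 2931 of 3001. The separation of HSFA3 from HSFA1E thus depends on the deposited lengths. Leaving out 1 library changed the rank of 2 to 4 genes, with HSFB2A among them each time. The median level of all listed loci was 6.47 RPKM, so MBF1C, HSFB1 and HSFA1B lay above it on average. The deposited lengths follow the genomic span of each gene more than a spliced transcript, with a median of 0.939 of the span in the name table, so genes with long introns are understated. MBF1C was counted over 629 bases, against a span of 1417 bases in the later annotation, and HSFB1 over 1974 of 1975 bases. In CPM, MBF1C had a mean of 12.1, below HSFB1 (27.4), HSFA1B (20.8) and HSFA1D (18.1). The first rank of MBF1C and the 11.96-fold span thus depend on the deposited lengths.

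**Figure D3:**
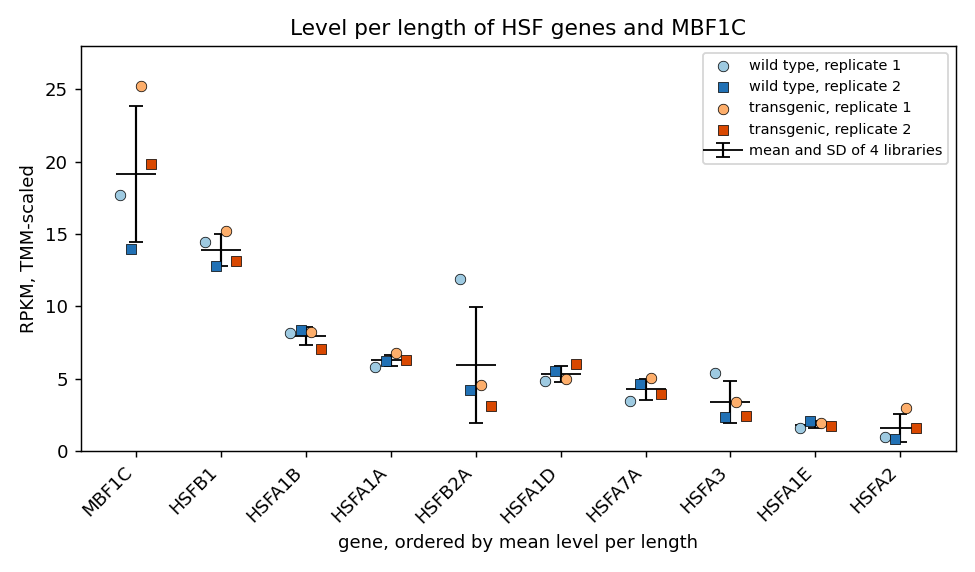
Level per length of each gene in TMM-scaled RPKM, ordered by the mean, with the mean and SD of 4 libraries in black and each library as a point. On the deposited lengths, MBF1C (19.2 RPKM) and HSFB1 (13.9 RPKM) stand above the other genes. The spread of HSFB2A comes from wild-type replicate 1 at 11.9 RPKM.

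Likeness of pattern was measured as the distance between centred log2 CPM profiles over the 4 libraries, among 19468 loci with a mean of at least 1 CPM. The nearest profiles to HSFA2 were MRU1 (AT5G35490), AT1G66020 and LECRKA4.2 (AT5G01550), at distances of 0.163, 0.26 and 0.361 on the log2 scale. These loci had only 0.447 to 0.672 CPM in the wild-type libraries, so their profiles rest on few counts. Nearest to MBF1C were ATCG01120, AT3G05936 and AT3G52360, at 0.051, 0.0535 and 0.0689. Nearest to HSFA7A were ORP4B (AT4G25850), TRM11 (AT3G26410) and AT5G44440, at 0.0234, 0.0437 and 0.0451. Low levels also limit the profiles of ATCG01120 (2.12 to 3.86 CPM), ORP4B (1.09 to 1.64 CPM) and AT5G44440 (2.04 to 3.03 CPM). None of these 9 loci passed edgeR's test, with adjusted p from 0.345 to 0.925. The distances describe these 4 libraries alone.

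Of the other 12 HSF genes of Arabidopsis, 9 were listed and tested, and HSFA7B, HSFA9 and HSFB3 were not analysed here. None of the 9 passed, 0 had an unadjusted p under 0.05, and their median log2 fold change was 0.06. That median ranged from -0.26 (when wild-type replicate 2 was left out) to 0.06, so it had no stable direction. HSFA8 (AT1G67970) had 34.5 CPM in wild-type replicate 1 and 16.6 to 19.9 CPM in the other 3 libraries, the same high library as for HSFA3 and HSFB2A. Its log2 fold change was -0.52 (edgeR adjusted p = 0.673). That value became -0.93 when wild-type replicate 2 was left out and 0.0021 when wild-type replicate 1 was. HSFA5 (AT4G13980) and HSFA4C (AT5G45710), from the class A4 and A5 branch of the family, had log2 fold changes of 0.16 (SE 0.12) and 0.15 (SE 0.13). Over the whole family 11 of 18 tested HSF genes had higher means in transgenic seedlings, beside 51.4% of all loci tested.

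The genes that HSF proteins are known to activate had higher means in transgenic seedlings as a list, and none passed in edgeR. Of 18 heat-induced genes, 17 were listed and 16 tested, HSP22 (AT4G10250) falling below the filter with 2, 5, 12 and 3 counts and APX2 not analysed here. Higher means were seen for 15 of the 16, and both transgenic libraries lay above both wild-type libraries for 14, beside 20.2% of all loci tested. The median log2 fold change was 0.82, against 0.01 over all loci. None passed over all loci by edgeR, while DESeq2 called 5 as higher, edgeR with robust fitting 1 and limma 1. Over all loci these called 29, 17 and 6 as higher. In edgeR, 11 had an unadjusted p under 0.05 with a higher mean, beside 3.7% of all loci tested. Earlier results of these data had already shown the heat shock genes to be higher, so this count is no independent evidence of their direction.

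HSP17.6II (AT5G12020), a cytosolic small heat shock protein gene, went from 2.49 and 2.17 CPM in wild type to 7.08 and 6.51 CPM in transgenic seedlings (2.92-fold, edgeR adjusted p = 0.0601). HSP23.6 (AT4G25200), which encodes a mitochondrial small heat shock protein, had 1.47 and 2.17 CPM against 4.68 and 5.89 CPM (2.86-fold, edgeR adjusted p = 0.163). HSP17.6C (AT1G53540) had 2.55 and 2.59 CPM against 7.58 and 5.83 CPM (2.602-fold, edgeR adjusted p = 0.101). HSP17.6A (AT5G12030) had 6.13 and 7.60 CPM against 21.4 and 14.4 CPM (2.59-fold, edgeR adjusted p = 0.0969). HSP101 (AT1G74310), the disaggregase needed for acquired thermotolerance, had 19.03 and 19.4 CPM in wild type and 33.6 and 26.8 CPM in transgenic seedlings (1.57-fold, edgeR adjusted p = 0.253). Reads can be split among near-identical small heat shock genes.

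With 1 library left out, the median log2 fold change of the heat-induced list stayed between 0.77 and 0.94. The lowest value came without transgenic replicate 1 and the highest without transgenic replicate 2.

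**Figure D4:**
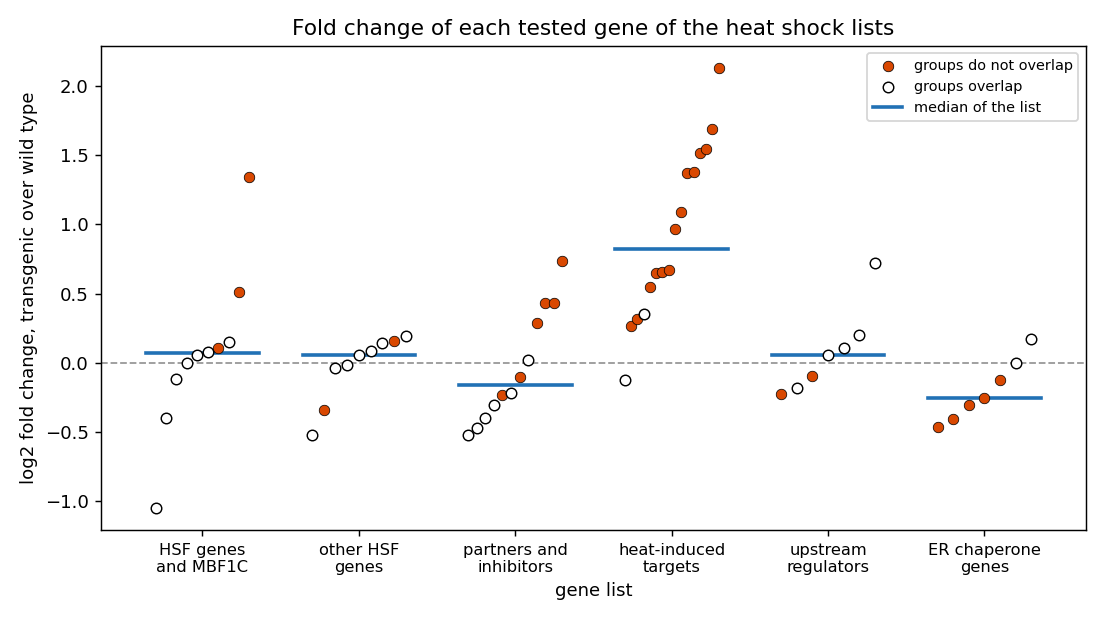
Log2 fold change, transgenic over wild type, of each tested gene of 6 lists, with filled points where the groups do not overlap, open points where they do, and a blue line at the list's median. The heat-induced targets lie above 0 in 15 of 16 cases with a median of 0.82, while the HSF genes and MBF1C are centred near 0 with HSFA2 at 1.34 and HSFB2A at -1.05 as the ends.

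The genes of proteins that bind HSF proteins, among them the chaperones that hold them back, gave a mixed picture, with 5 higher and 7 lower means among 12 tested genes and a median log2 fold change of -0.16. None of the 12 passed. HSP70-5 (AT1G16030), a heat-induced HSP70 gene, had 12.5 and 17.5 CPM in wild type and 25.9 and 24.2 CPM in transgenic seedlings (1.66-fold, edgeR adjusted p = 0.285). HSP90.1 (AT5G52640), the heat-induced cytosolic HSP90 gene, had 39.4 and 37.0 CPM against 61.6 and 41.5 CPM (1.35-fold, edgeR adjusted p = 0.605). HSP90.3 (AT5G56010), which is expressed without stress, had 310.1 and 217 CPM against 219 and 161 CPM (log2 fold change -0.47, edgeR adjusted p = 0.607). HSP70-3 (AT3G09440), likewise expressed without stress, had 202 and 118 CPM against 126 and 96.4 CPM (log2 fold change -0.52, edgeR adjusted p = 0.634). Without wild-type replicate 2, the log2 fold changes were 0.99 (HSP70-5), -0.71 (HSP90.3) and -0.87 (HSP70-3). When wild-type replicate 1 was left out instead, HSP70-5 had 0.52, HSP90.3 had -0.19 and HSP70-3 had -0.088. HSP90.1 had 0.11 when transgenic replicate 1 was left out, against 0.43 with all 4 libraries. The HSP70 and HSP90 genes are close paralogs among which reads can be split.

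Among regulators known to act on HSF genes, 0 of 7 passed and 0 had an unadjusted p under 0.05, with a median log2 fold change of 0.05 that ranged from -0.0475 to 0.042 over the fits without 1 library. DREB2A (AT5G05410), an activator of HSFA3, had 8.62 and 7.91 CPM in wild type and 10.997 and 8.04 CPM in transgenic seedlings (log2 fold change 0.20, SE 0.18, edgeR adjusted p = 0.798). DREB2B (AT3G11020) and DPB3-1 (AT1G07980), a partner of DREB2A, had -0.18 (SE 0.18) and -0.23 (SE 0.14). JUB1 (AT2G43000), a NAC factor that activates DREB2A, had 11 and 10 counts in wild type and 22 and 10 counts in transgenic seedlings, and its groups overlapped.

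Genes of endoplasmic reticulum (ER) chaperones and of the bZIP factors that control their stress response had lower means in 5 of 7 cases, and none passed. The other two were BZIP60 (AT1G42990) at 0.0017 and BIP3 (AT1G09080) at 0.17, both with overlapping groups. The 5 lower genes had no overlap between groups (19.3% of all loci tested lay below in this way), and 4 had an unadjusted p under 0.05 with a lower mean, beside 4.22% of all loci tested. The median log2 fold change of the list was -0.26. BIP2 (AT5G42020) and BIP1 (AT5G28540), the ER HSP70 genes, had log2 fold changes of -0.46 (SE 0.11, edgeR adjusted p = 0.348) and -0.41 (SE 0.12, edgeR adjusted p = 0.495). The lectin chaperone gene CNX1 (AT5G61790) and the disulfide isomerase gene PDIL1-1 (AT1G21750) had -0.30 (SE 0.11) and -0.26 (SE 0.09). The median of this list ranged from -0.30 to -0.20 with 1 library left out. In those fits BIP1 ranged from -0.56 to -0.25 and BIP2 from -0.58 to -0.34. BIP1 and BIP2 are near-identical, so the split of reads between them is uncertain.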

How the data were processed

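Deposited raw counts per locus of 4 mRNA libraries were used. The deposited CPM and RPKM, computed by the authors, matched those counts and the deposited lengths (other unit, bases) within 0.001 for 100% of values. BWA 0.5.8c, Bowtie, edgeR and TAIR9 are named per the submitters' processing notes, with no role given. Names came from a RefSeq table of TAIR10.1 (98.64% of loci matched), so no coordinates are given. No locus is listed with fewer than 11 counts in its highest library. The 4 small RNA samples were not used.

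edgeR 4.0.16 (R 4.3.3) was run without covariates (TMM factors, filterByExpr, then glmQLFit and glmQLFTest) over 20298 loci with Benjamini-Hochberg adjustment. An SE is the log2 fold change over the root of F. The common biological coefficient of variation was 0.103. Replicate counts differed beyond sampling (chi-square per degree of freedom 10.2 and 11.1). The labels call the pools biological replicates. No single-gene permutation test was made, since 2 against 2 libraries cannot reach the threshold. RPKM here used TMM sizes.

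All 10 genes were named, up to 4 per list by smallest p, plus a fixed few, the nearest profiles and overlapping genes; HSP22, below the filter, was named after its values were seen. Genes and lists were chosen with earlier results of these data known. Alternatives were other factors, filters, robust fitting, DESeq2 1.42.0, limma 3.58.1 on log2(RPKM + 0.5), a replicate block and each library left out. The model was tested on simulated data. Figures used matplotlib 3.10.9.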

Additional observations from a re-analysis of the deposited data

How the results depend on the processing

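Over all loci, edgeR called 17, against 76 by DESeq2, 31 with robust fitting, 10 by limma on log2(RPKM + 0.5), 41 at adjusted p under 0.1, and 16 to 411 with 1 library left out. RLE factors, no factors and other filters stayed within 1.5 times of 17. Of the 10 HSF and MBF1C genes, 0 to 1 was called with 1 library left out. Their median log2 fold change stayed between -0.05 and 0.16 in those fits, and the number of genes that changed rank in the order of levels was 2 to 4. The count of 3 genes without overlap was also 3 with RLE factors and was 2 with no factors.

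With 1 library left out, 5 of the 10 genes turned direction in at least 1 fit. The log2 fold changes ranged from -0.91 to 0.30 (HSFA3), -0.046 to 0.39 (HSFA7A), -0.072 to 0.20 (HSFA1D), -0.059 to 0.16 (HSFB1) and -0.18 to 0.21 (HSFA1E). HSFA1E also had -0.0039 with RLE factors. Among the other named genes the ranges that crossed 0 were -0.93 to 0.0021 (HSFA8), -0.057 to 0.012 (MBF1A), -0.047 to 0.41 (DREB2A) and -0.29 to 0.29 (HSFC1, which had 0.00135 by limma). The cause was not tested.

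With a replicate block edgeR called 596 loci and 3 of the 10 genes: HSFA2 (1.297, adjusted p = 0.0168), MBF1C (0.51, adjusted p = 0.048) and HSFB2A (-0.98, adjusted p = 0.00952). The labels do not say that a number marks a shared batch. Across the loci tested, the deviations of the replicate 1 libraries from their group means had a correlation of 0.228. Replicate 2 adds nothing to this, as its deviations mirror those of replicate 1. Whether the numbers mark a shared batch is thus unknown, and the block is given here as an alternative only. It also called 9 heat-induced genes as higher, 2 partner genes as higher and 3 as lower, and 3 ER chaperone genes as lower. The search for heat shock elements in promoters was not run, because no sequence was used here. HSFA2 rests on 26 to 81 counts per library, which limits its precision.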

Other observations

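HSFC1 (AT3G24520), the class C member of the family, lies near MBF1C on the chromosome, with 9 annotated genes between them in the name table. HSFC1 had 23.3 and 15.6 CPM in wild type and 18.9 and 19.3 CPM in transgenic seedlings. The wild-type values enclosed the transgenic ones, unlike those of MBF1C, and the log2 fold change was -0.02 (SE 0.18, 95% interval -0.44 to 0.40, edgeR adjusted p = 0.987).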
